A study of Mus musculus with 6 samples.

Results

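The genes described here encode the kinases and scaffold proteins of the JNK arm of MAPK signaling: the MAPK kinases MKK4 (Map2k4) and MKK7 (Map2k7), the kinases JNK1 (Mapk8), JNK2 (Mapk9) and JNK3 (Mapk10), and the scaffolds JIP1 (Mapk8ip1), JIP2 (Mapk8ip2), JIP3 (Mapk8ip3) and JIP4 (Spag9). They were chosen by name, as every non-control probe whose gene name in the array files is one of these 9 symbols. This gave 16 of the array's 55681 probes and 9 of its 34761 gene names. RNA came from CD71high Ter119+ bone marrow (BM) erythroblasts, nucleated red cell precursors, sorted from C57Bl/6 mice 4 days after 1 dose of 100 mg per kg phenylhydrazine (PHZ), an agent that causes hemolysis. All 6 mice carried floxed P38α and Mx1-Cre, a recombinase under an interferon-inducible promoter that is not specific to erythroid cells, and all received 3 injections of PolyIC (300 µg each) at 6 to 8 weeks of age, followed by 6 weeks of rest. The 3 P38α+/- mice, the controls, could delete 1 allele and the 3 P38α-/- mice could delete both, so the comparison holds no mouse with intact P38α alleles. Mice of either sex were used in the study, and 10 ng of RNA from each mouse went onto 1 array.

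JNK is a stress-activated MAPK that is switched on when MKK4 and MKK7 phosphorylate it, and the MKKs are switched on in turn by MAP3 kinases. The JIP scaffolds hold these kinases together, and dual-specificity phosphatases (DUSPs) switch JNK off again. JNK1 and JNK2 are found in most tissues, whereas JNK3, JIP1 and JIP2 are known mainly from neurons, and P38α lies in the parallel arm below MKK3 and MKK6. The arrays measured mRNA, not phosphorylation or protein.

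The sequences below are the first 30 of the 60 bases of the probes for the MKKs and for JNK1 and JNK2, 5′ to 3′ as deposited. They are shown because a gene's level here is that of the stretch its probe covers, and the probes of JNK1 and of JNK2 did not all give the same reading.
Map2k4 probe 1: tacttgagcaggataaagatcctaaatggc
Map2k4 probe 2: gcagtcataccccgagaaagaaattcaaga
Map2k7 probe 1: aaggatgtcatggcgaagaccgagtcccca
Mapk8 probe 1: aatagatgcatccaaaaggatctccgtaga
Mapk8 probe 2: ggatggggaattggttagtcattgatagaa
Mapk8 probe 3: ctgagtgtaaattataaatgtgcgttgaat
Mapk9 probe 1: cagatcgcgtatctcaaaagtggctttgcc
Mapk9 probe 2: caaacgcacgcaaagagagcctaccgtgaa
On mm9, the Map2k4 probes lie on the minus strand at chr11:65502886-65502945 and chr11:65501771-65501830. They stand 1115 bases apart both in the genome and in the transcript they were designed on, so no intron separates their starts. The Map2k7 probe is at chr8:4245752-4245811, on the plus strand. The Mapk8 probes are on the minus strand at chr14:34200386-34200445, chr14:34195274-34195333 and chr14:34191681-34191740. Mapk8 probes 1 and 2 are 407 bases apart in the transcript and 5112 in the genome, so intron sequence lies between them, whereas probes 2 and 3 are 3593 bases apart on both. The Mapk9 probes, on the plus strand at chr11:49699496-49699555 and chr11:49677113-49677172, span 22.4 kb. The exon or UTR behind each probe is not given in the sources used here. Over the 111 pairs of probes for different genes of this set, the longest run of bases that a pair shared was 9.

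The pair of probes for Mapk14, which encodes P38α, had log2 fold changes of 0.54 (adjusted p = 0.185, limma) and 0.01, so neither was lower in the arrays labelled P38α-/-. The part of the gene that was deleted is not given in the sources used here, and these probes therefore do not check the labels. Of 15 erythroid marker genes on the array, 15 were well above background on all 6 arrays, and their summed level ranged from 10.2 to 10.9 in each genotype on the log2 scale used below. All 12 neutrophil markers were also well above background on all 6 arrays, with a summed level of 6.75 to 8.14 in P38α+/- arrays and 5.82 to 6.34 in arrays labelled P38α-/-, which did not overlap. The summed level of 10 B cell markers was −2.58 to 0.84 in P38α+/- arrays and −3.68 to −2.08 in the others, and Rag1, one of its defining markers, was well above background on no array. The corresponding ranges were −0.49 to 0.79 and −1.18 to −0.07 for macrophage markers, and 0.32 to 1.68 and 0.01 to 0.25 for T and NK cell markers. Megakaryocyte markers went the other way on average, with 1.13 to 1.64 and 1.38 to 1.82, which overlapped. Between 28.5% and 53.1% of probes were well above background on an array, the share being highest in P38α+/- replicate 1 and lowest in P38α-/- replicate 1. In sorted cells measured in bulk, fewer cells of a type and less RNA per cell cannot be told apart.

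None of the 9 genes was differentially expressed between the genotypes. Each value is a log2 signal from which the 75th percentile of its array was subtracted, that percentile being set by the 15150 probes that every array detected above background. A probe was tested where all 3 arrays of a genotype detected it in this way, and a gene was called where its adjusted p by limma was 0.05 or less and it differed at least 2-fold. Of the 16 probes, 8 were tested, against 33.3% of all probes, and they belong to 4 genes: Map2k4, Mapk9, Mapk8ip3 and Spag9. By limma with Benjamini-Hochberg adjustment, 0 of the 4 were called. Over the whole array, 0.207% of the 14025 genes tested were called (0.164% higher and 0.0428% lower). This fit was unpaired. With the replicate number as a block, 0 JNK arm genes and 67 genes over the whole array were called. At an unadjusted p of at most 0.05, limma passed 1 of the 8 probes, a Mapk9 probe, as did the unpaired equal-variance test named in the methods, where 21% of all tested probes passed by limma. The log2 fold changes of the 8 probes (arrays labelled P38α-/- minus P38α+/-) ran from −0.64 to −0.01, and that of the median probe of the whole array was −0.16, with 5 of the 8 above the median probe and 3 below. The genotypes did not overlap at 1 of the 8, against 27.8% of all tested probes. The 95% intervals of the fold changes lay within a 2-fold change either way for 7 of the 8 probes. With the arrays centred on spike-in spots this held for 0 of the 8, so the limit on undetected changes depends on the scaling. The other 5 genes were not tested and are given below by their values.

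**Figure D1:**
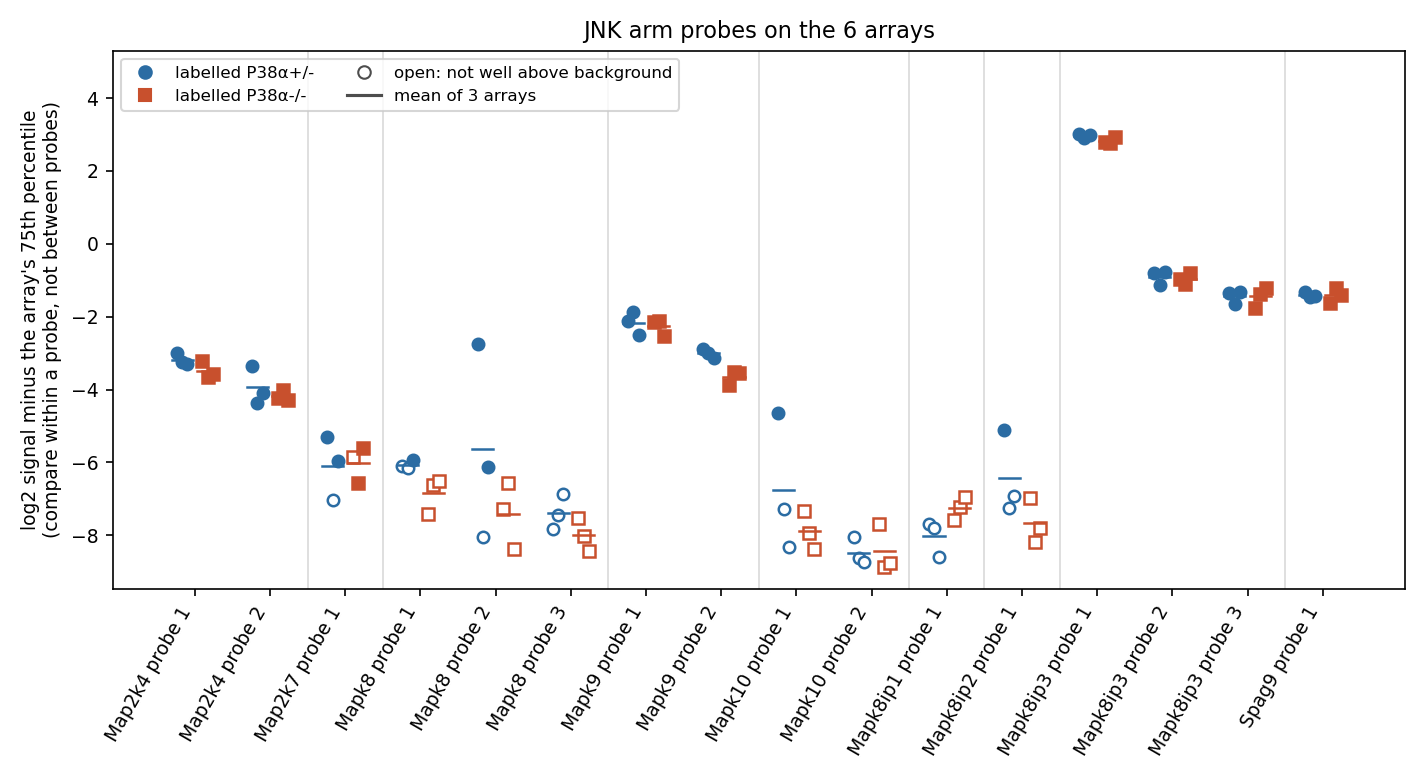
Log2 signal, relative to each array's 75th percentile, of the 16 probes of JNK arm genes, with 1 point per array, circles for P38α+/- and squares for arrays labelled P38α-/-; filled points were well above background and bars are means of 3 arrays. The tested genes differ little between genotypes, Mapk9 probe 2 is lower in every array labelled P38α-/-, and Mapk8 probe 2, Mapk10 probe 1 and Mapk8ip2 each have 1 high point, from P38α+/- replicate 1.

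MKK4, which phosphorylates JNK and can also phosphorylate P38, was read by both of its probes on all 6 arrays. Probe 1 read −3.0, −3.24 and −3.30 in P38α+/- replicates 1, 2 and 3 and −3.23, −3.67 and −3.57 in P38α-/- replicates 1, 2 and 3. The genotypes overlapped, through P38α-/- replicate 1. Probe 2 read −3.34, −4.38 and −4.08 against −4.23, −4.0 and −4.30, with P38α+/- replicate 1 above all other arrays and the rest intermingled. The fitted log2 change of probe 2 was −0.24 ± 0.29 (standard error; adjusted p = 0.672, limma), beside −0.31 for probe 1 (95% interval −0.75 to 0.13). Relative to the median probe of the array, probe 1 stood at −0.15, and it was below the median probe in all 18 ways of processing that were run, by between 0.04 and 0.28. These ways are not independent checks. Filters, the replicate block and the methods' test leave a probe's own fold change unchanged, and the slide block equals omitting P38α-/- replicate 3. Probe 2 stood at −0.08 relative to the median probe and crossed it in 5 of the 18. The difference between the probes within an array changed by −0.07 between genotypes (two-sided exact permutation test, p = 0.70).

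MKK7, the kinase that phosphorylates JNK and not P38, was near the detection limit. Its only probe read −5.31, −7.05 and −5.96 in P38α+/- arrays and −5.87, −6.56 and −5.60 in arrays labelled P38α-/-. In each genotype 2 of 3 arrays detected it above background, and it failed in P38α+/- replicate 2 and P38α-/- replicate 1. The genotypes overlapped throughout, and their means differed by 0.10 (P38α+/- −6.10 ± 0.88, the others −6.01 ± 0.50, SD, n = 3 each, exact permutation p = 0.90).

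The difference between 2 probes of the same array compares the MKKs of P38 with those of JNK without depending on how arrays are scaled to each other by a constant. The size of such a difference has no meaning by itself, since probes differ in how brightly they read, but its change between genotypes can be compared. For MKK3 (Map2k3), which phosphorylates P38, minus MKK4 it was 2.76, 2.74 and 3.54 in P38α+/- arrays and 3.81, 4.27 and 4.36 in arrays labelled P38α-/-. Every array labelled P38α-/- lay above every P38α+/- array, with a change of 1.13 (exact permutation p = 0.10, the smallest that 3 arrays against 3 allow, 0.167 adjusted over 5 pairs of genes). The change stayed between 0.99 and 1.39 when each array was left out in turn. It was 0.82 under quantile normalization and 0.79 in the authors' normalized table. Under normexp background correction it was 0.97 and the genotypes overlapped (exact permutation p = 0.20). For MKK6 (Map2k6), the other P38 kinase, minus MKK4 the values were −1.96, −1.46 and −4.07 against 1.00, 1.28 and 0.98. This pair did not overlap either, with a change of 3.59 (p = 0.10, exact permutation, 0.167 adjusted), and 1 of the 3 P38α+/- arrays did not detect Map2k6 above background. With normexp background correction the change was 1.85.

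Against MKK7 the pattern was less clear. Map2k3 minus Map2k7 was 5.07, 6.55 and 6.20 in P38α+/- arrays and 6.44, 7.16 and 6.39 in arrays labelled P38α-/-. The genotypes overlapped, and the change of 0.72 (exact permutation p = 0.30, 0.30 adjusted) turned to −0.17 under quantile normalization and −0.14 in the authors' normalized table. It was 0.29 without P38α+/- replicate 1, 0.47 without P38α-/- replicate 2 and 1.03 without P38α+/- replicate 2. Between arrays of the same replicate number it was higher in 3 of 3 pairs (exact sign permutation p = 0.25). Map2k6 minus Map2k7 was 0.35, 2.34 and −1.41 against 3.64, 4.18 and 3.01, without overlap (change 3.18, exact permutation p = 0.10, 0.167 adjusted). On their own, Map2k3 and Map2k6 were fitted at 0.82 and 3.28 on the log2 scale (adjusted p = 0.141 and 0.103, limma), and neither was called. Map2k6 entered the test only because all 3 arrays labelled P38α-/- detected it above background. A second Map2k6 probe was well above background on no array and was not tested, and its values overlapped.

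**Figure D2:**
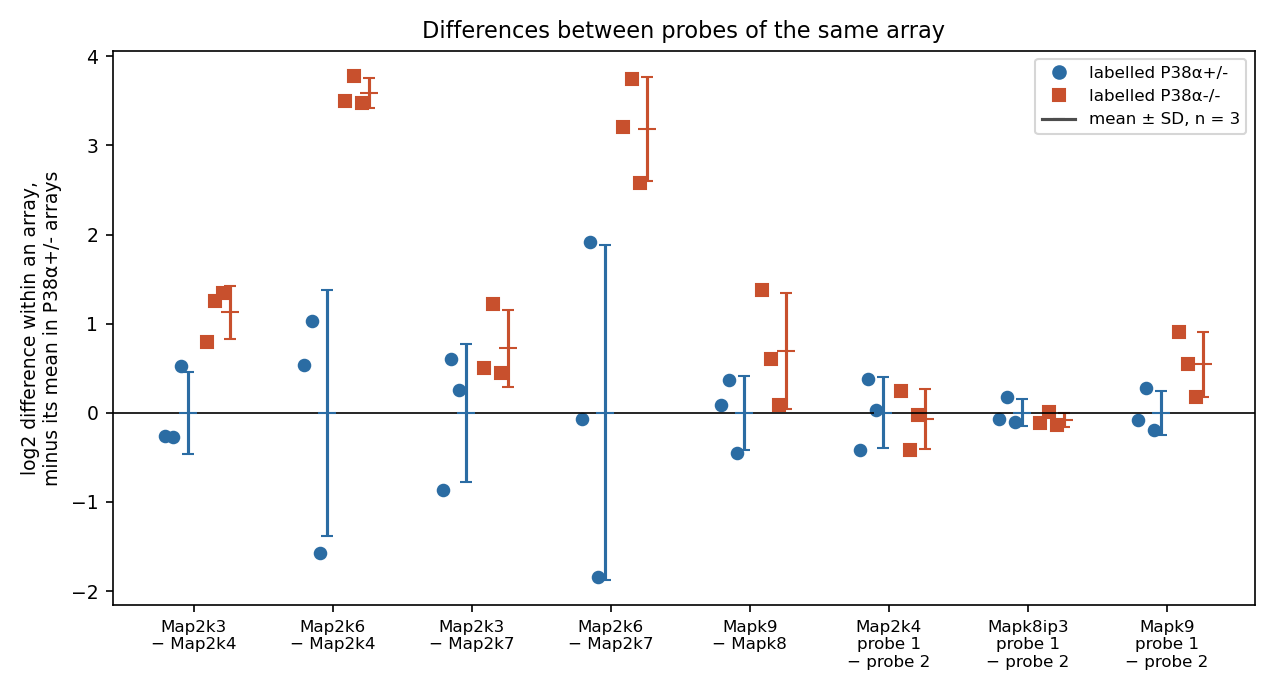
Log2 difference between a pair of probes of the same array, with the mean of the 3 P38α+/- arrays set to 0, for 5 pairs of genes and 3 pairs of probes of 1 gene; points are arrays and bars show mean ± SD (n = 3). Map2k3 minus Map2k4, Map2k6 minus Map2k4 and Map2k6 minus Map2k7 are higher in all 3 arrays labelled P38α-/-, and the other 5 pairs overlap.

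JNK2 was the only JNK well above background on all 6 arrays, and its probes differed in what they showed. Probe 2 read −2.88, −3.0 and −3.14 in P38α+/- arrays and −3.88, −3.51 and −3.55 in arrays labelled P38α-/-. Every array labelled P38α-/- was lower than every P38α+/- array, as at 20.9% of tested probes over the whole array. It was lower by 1.56-fold (log2 fold change −0.64, standard error 0.17, 95% interval −1.05 to −0.23), and by limma it did not pass after adjustment (adjusted p = 0.138, limma). Relative to the median probe it was −0.48. It was lower in all 18 ways of processing, by 0.16 to 0.71 on the log2 scale and by 0.33 to 0.54 relative to the median probe, and its adjusted p ran from 0.0320 to 1.00 over them. Filters, the replicate block and the methods' test could not move its fold change, so the 18 are not independent. With limma's array weights it passed on p alone (log2 fold change −0.56, adjusted p = 0.0320), under a 2-fold change. The neutrophil marker sum was lower in the same arrays, and its part in this value was not tested.

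Mapk9 probe 1 read −2.12, −1.88 and −2.50 in P38α+/- arrays and −2.14, −2.12 and −2.53 in arrays labelled P38α-/-. The genotypes overlapped, with the lowest values in the arrays numbered 3 of both, and limma gave −0.10 with a standard error of 0.22 (adjusted p = 0.841). Probe 1 minus probe 2 within an array was 0.76, 1.11 and 0.64 in P38α+/- arrays and 1.74, 1.38 and 1.01 in the others. These overlapped through P38α-/- replicate 3 and P38α+/- replicate 2, and the change of 0.54 had an exact permutation p of 0.20 (0.60 adjusted over 3 genes with a pair of probes). Between arrays of the same replicate number it was higher in 3 of 3 pairs (exact sign permutation p = 0.25, the smallest that 3 pairs allow).

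JNK1 was at or near background. Probe 1 read −6.10, −6.15 and −5.94 in P38α+/- arrays and −7.41, −6.63 and −6.52 in arrays labelled P38α-/-. The genotypes did not overlap (exact permutation p = 0.10). Of the tested probes, which do not include this one, 20.9% were likewise lower in every array labelled P38α-/-. The probe was well above background only on P38α+/- replicate 3. No fold is given, since most of these values are below background. Probe 2 read −2.75, −8.06 and −6.12 against −7.29, −6.55 and −8.38. P38α+/- replicate 1 stood apart, with a processed signal of 120.4 where replicates 2 and 3 gave 4.89 and 21.4, and only replicates 1 and 3 were well above background. The genotypes overlapped (exact permutation p = 0.40), and no fold is given here either. Probe 3, which no intron separates from probe 2, was well above background on no array and read −7.84, −7.45 and −6.86 against −7.52, −8.02 and −8.44. JNK2 minus JNK1, from their brightest probes, was 3.98, 4.26 and 3.44 in P38α+/- arrays and 5.27, 4.50 and 3.99 in the others, which overlapped (change 0.69, exact permutation p = 0.20, 0.25 adjusted over the 5 pairs). It was higher in 3 of 3 pairs of the same replicate number (exact sign permutation p = 0.25) and was 0.35 without P38α-/- replicate 1. Since the Mapk8 probe was well above background on 1 of the 6 arrays, its size has little meaning.

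JNK3 is known mainly from brain. Its probe 1 was well above background only on P38α+/- replicate 1, where it read −4.66, against −7.28 and −8.33 in the other P38α+/- arrays and −7.34, −7.94 and −8.38 in arrays labelled P38α-/-. Its probe 2 was well above background on no array, and its 6 values lay between −8.87 and −7.70.

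Among the scaffolds, JIP3 and JIP4 were measured on every array and JIP1 and JIP2 were not. JIP3, which links JNK signaling to kinesin and dynein motors, had 3 probes within 1.5 kb at chr17:25034500-25034559, chr17:25035274-25035333 and chr17:25035939-25035998, on the chromosome of Mapk14 and 3.85 Mb from its brighter probe. Probe 1 read 3.01, 2.91 and 2.99 in P38α+/- arrays and 2.79, 2.78 and 2.92 in arrays labelled P38α-/-. The genotypes overlapped through P38α-/- replicate 3, and the log2 fold change was −0.14 (standard error 0.14, 95% interval −0.48 to 0.19, adjusted p = 0.607, limma). Probes 2 and 3 had log2 fold changes of −0.06 and −0.01 (adjusted p = 0.875 and 0.990, limma), and both overlapped.

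JIP4 (Spag9, probe at chr11:93987302-93987361) read −1.31, −1.45 and −1.42 in P38α+/- arrays and −1.63, −1.20 and −1.41 in arrays labelled P38α-/-. The highest and the lowest value were both in arrays labelled P38α-/-, and the log2 fold change was −0.02 (standard error 0.17, 95% interval −0.42 to 0.39, adjusted p = 0.970, limma).

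JIP1 was well above background on no array. Its values of −7.68, −7.80 and −8.58 in P38α+/- arrays and −7.59, −7.22 and −6.96 in the others did not overlap. Of the tested probes, 6.9% were higher in this way, but this probe was not tested and its values are below background. No fold is given for it. JIP2 was well above background only on P38α+/- replicate 1, at −5.11, where its other 5 values lay between −8.20 and −6.94. Of the 16 probes of these genes, 12, 8 and 11 were well above background in P38α+/- replicates 1, 2 and 3, and 8, 9 and 9 in P38α-/- replicates 1, 2 and 3. The single detections of Mapk10 and Mapk8ip2 and the high value of Mapk8 probe 2 thus fell on the array with the largest share of detected probes, and the part of that in these values was not tested. The summed level of 8 neural markers on that array was 1.06, against 0.26 and −0.11 in the other P38α+/- arrays and 1.01, −0.14 and 0.19 in P38α-/- replicates 1, 2 and 3.

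Among genes that act around the JNK arm, the inhibitors were the only list with calls. The lists were MAP3 and MAP4 kinases, partners of the scaffolds, inhibitors of JNK, substrates of JNK together with some genes downstream of it, and the P38 arm. Of 20 inhibitor genes on the array, 13 were tested and 2 were called, both higher, beside 0.164% of all tested genes called higher. The lists were chosen with earlier results of these data known, so these counts are no test of enrichment. The called genes are Dusp16 and Dusp8, which encode phosphatases that act on JNK. Dusp16 read −4.24, −4.70 and −4.05 in P38α+/- arrays and −1.86, −1.73 and −1.80 in arrays labelled P38α-/-. All 3 arrays labelled P38α-/- lay above the others, by 2.53 on the log2 scale with a standard error of 0.20 (adjusted p = 0.0193, limma). A second Dusp16 probe, 2 of 3 and 1 of 3 arrays well above background in arrays labelled P38α-/- and P38α+/-, was not tested, and its values overlapped. Dusp8 passed by its second probe, which read −1.68, −2.12 and −1.68 against 0.57, 0.04 and 0.49 (log2 fold change 2.19, adjusted p = 0.0345, limma). Its brighter probe gave 2.17 and did not pass (adjusted p = 0.0574, limma), but passed with the replicate number as a block (adjusted p = 0.0462, limma). Both genes were higher in every way of processing, though several of these ways cannot move a fold change. Dusp16 was called in 8 of 18 and the second Dusp8 probe in 7 of 18. Leaving out P38α+/- replicate 2, or any one of the arrays labelled P38α-/-, ended both calls, and leaving out P38α+/- replicate 1 ended that of Dusp8. The neutrophil marker sum was lower in the same arrays labelled P38α-/-, and its part in these values was not tested. Of the other inhibitors, Gstp1, a glutathione transferase that binds JNK, had the next largest change without overlap among those well above background on all 6 arrays, 1.08 (adjusted p = 0.114, limma). Dusp2, another MAPK phosphatase, named after its values were seen, lay lower in all 3 arrays labelled P38α-/-, at −3.43 (adjusted p = 0.151, limma), and was well above background on only 1 of them. Over the whole array, 6.9% of tested probes lay higher without overlap and 20.9% lower.

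The 19 tested MAP3 and MAP4 kinases held 0 calls and had a median log2 fold change of −0.09, where that of all tested genes was −0.14. Map3k4, which lies above MKK3, MKK4 and MKK6, read −1.21, −1.17 and −1.16 in P38α+/- arrays and −0.50, 0.10 and −0.04 in the others, without overlap (log2 fold change 1.03, adjusted p = 0.0867, limma). Map4k4 and Map3k20, both of which act upstream of JNK, lay lower in all 3 arrays labelled P38α-/-, at −1.17 and −0.81 (adjusted p = 0.163 and 0.11, limma). Neither was called. Without overlap, 2 of the 19 lay higher and 6 lower, where 1024 and 2739 of all 14025 tested genes did.

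Of 11 tested scaffold partners 0 were called (median −0.24), and the genes without overlap and with the largest differences included Crk and Klc4, at −0.42 and −0.24. Of 29 tested genes on the JNK substrate list 0 were called (median −0.18). This list also holds genes placed downstream of JNK and not known here as its direct substrates, such as Ezh2, Cdk1 and Smurf2. Where substrates are counted, the genes of this list are meant. Jund and Jun, AP-1 transcription factors that JNK phosphorylates, had log2 fold changes of 1.66 and 1.56 (adjusted p = 0.0949 and 0.205, limma) and lay above all P38α+/- arrays in every array labelled P38α-/-. Fos, the AP-1 partner of Jun, named after its values were seen, lay below them all, at −2.97 (adjusted p = 0.146, limma), and was well above background on 2 of the 3 arrays labelled P38α-/-. Bcl2, an anti-apoptotic protein and likewise named after its values were seen, was also lower in all of these, none of which detected it above background (adjusted p = 0.101, limma). Ywhaz, a 14-3-3 protein, lay below, at −0.92 (adjusted p = 0.195, limma). Of 7 tested genes of the P38 arm 0 were called (median −0.14), with Mapkapk3, a kinase that P38 activates, at −1.45 (adjusted p = 0.158, limma). At an unadjusted p of 0.05 or less by limma and any fold, 679 of all 14025 tested genes were higher and 2126 lower. By the same measure 3 inhibitors were higher and 1 lower, 1 MAP3 or MAP4 kinase was higher and 5 were lower, 0 scaffold partners were higher and 2 lower, 2 substrates were higher and 9 lower, and 3 genes of the P38 arm were higher and 2 lower. Without overlap between genotypes, 1024 of all tested genes lay higher and 2739 lower. This held for 3 and 2 inhibitors, 0 and 3 scaffold partners, 2 and 11 substrates, and 3 and 2 genes of the P38 arm.

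**Figure D3:**
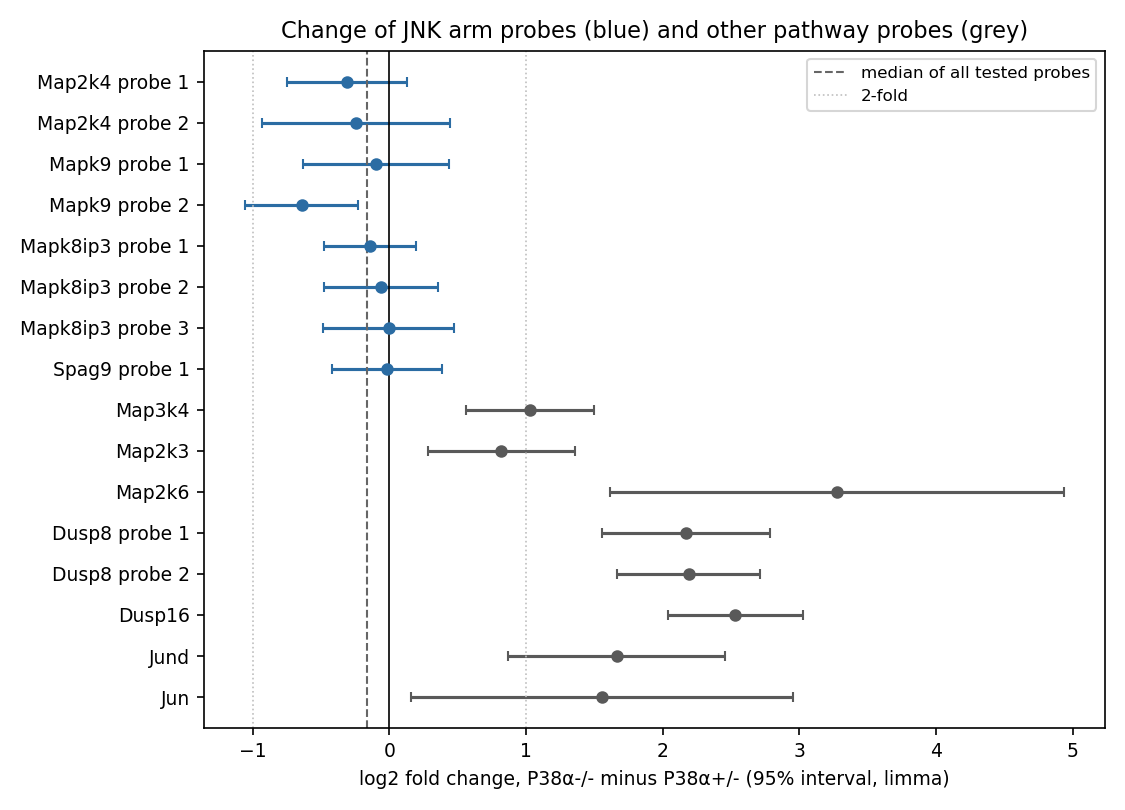
Log2 fold change (arrays labelled P38α-/- minus P38α+/-) with its 95% interval from limma for the 8 tested JNK arm probes in blue and for probes of Map3k4, Map2k3, Map2k6, Dusp8, Dusp16, Jund and Jun in grey; the dashed line is the median of all tested probes, −0.16, and dotted lines mark a 2-fold change. The JNK arm probes lie between −0.64 and −0.01, and the grey ones between 0.82 and 3.28.

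The sign of most of these small values changed with the scaling, and that of some also with array weights or with 1 array left out. With each array's 75th percentile taken over all probes, the median of all tested probes moved from −0.16 to 0.32, and 7 of the 8 JNK arm probes had positive values (Map2k4 0.17 and 0.24, Mapk9 probe 1 0.38, Spag9 0.47), whereas Mapk9 probe 2 kept its sign. Relative to that median, the 8 probes lay between −0.54 and 0.38 over all ways of processing. No direction is therefore given for Map2k4, Mapk8ip3, Spag9 or Mapk9 probe 1.

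**Figure D4:**
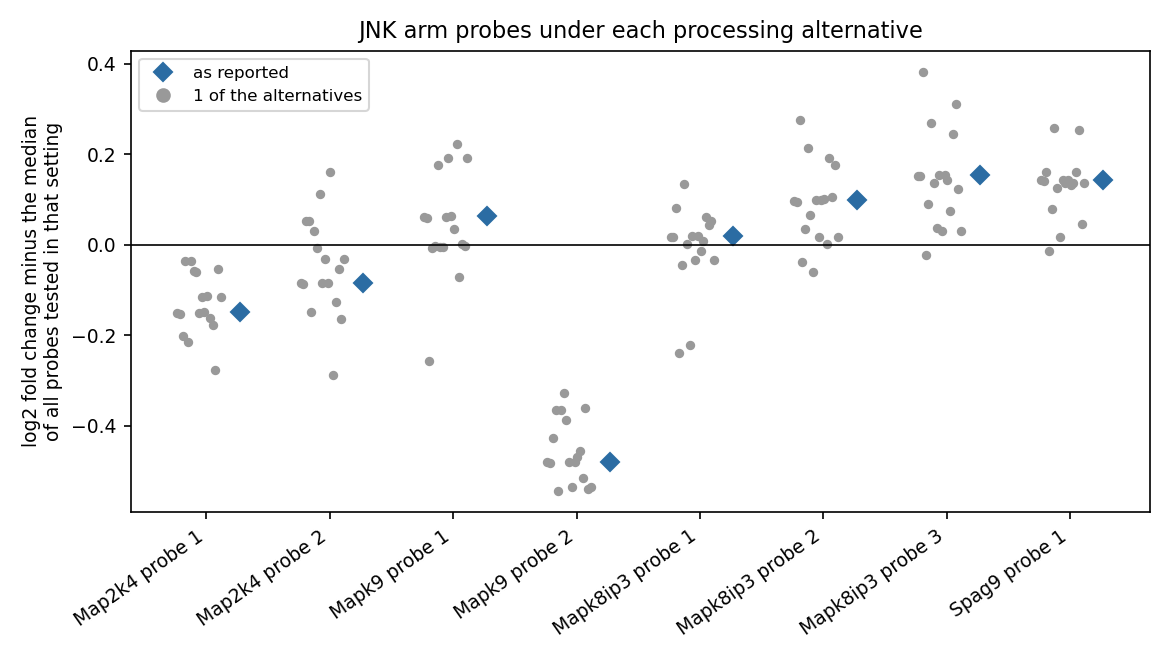
Log2 fold change of the 8 tested JNK arm probes minus the median of all probes, as reported (diamonds) and under each of 17 alternatives (grey points). Mapk9 probe 2 and Map2k4 probe 1 are below 0 in every case, and the other 6 probes lie on both sides of it.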

How the data were processed

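RNA of 6 mice was hybridised to 1 Agilent array each, with Cy3. The authors deposited scanner intensities from Agilent Feature Extraction 10.7.3.1, background-corrected on each array but not normalized between arrays; probe positions are in mm9, per the file headers. Their normalized intensity table was used as an alternative. In it, P38α-/- replicate 2 had a Spearman correlation of 0.898 with its scanner signal, against 1.00 for the other arrays. Intensity flags for detection, as deposited, decided which spots were well above background.

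Control spots and spots flagged as outliers were left out, spots of a probe were averaged, and log2 signals were centred on each array's 75th percentile. No spot was saturated. Genotypes and replicate numbers came from the sample labels. The genotype contrast was fitted by lmFit and eBayes of limma 3.58.1 (R 4.3.3, two-sided) and p-values were Benjamini-Hochberg adjusted over all 18547 tested probes, which represent 14025 genes. A gene was counted once whichever of its probes passed. A gene of a list counted as called if any tested probe passed, and medians and unadjusted counts were taken over the brightest tested probe of each gene. Single probes and differences within arrays were compared by exact permutation of the 6 arrays. The fit was tested on simulated data. Gene symbols were updated through RefSeq accessions and synonyms. The number of arrays limits the precision.

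All genes and probes of the set were named, with Mapk14, Map2k3, Map2k6, Map3k4 and Jund, and, from each list, called genes and the 3 largest changes without overlap between genotypes among genes well above background on all arrays. Some genes that this rule names are not reported here. The members, lists and tests were chosen with earlier results of these data known. Arrays of the same replicate number deviated together from the genotype means (correlations 0.54, 0.31 and 0.42, and at most 0.18 for different numbers). Deviations from a genotype mean cancel over its arrays, so correlations between different numbers tend to fall where those of the same number rise. The series text also speaks of pairs of mice, so the numbers were taken to pair the samples, which the sample labels do not state. The main fit left this pairing out, as the methods' test does, and the replicate block put it in. Because P38α-/- replicate 3 had a slide to itself, blocking on slide is the same as omitting that array. Alternatives covered scaling, background, filters, blocks, array weights, the methods' test, fold thresholds, averaging the probes of a gene, and leaving out each array.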

Additional observations from a re-analysis of the deposited data

How the results depend on the processing

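The count of 0 JNK arm genes called held in all 19 alternatives, including a fold of 1.5 and no fold threshold. The replicate block gave 0 as well, and it changed no call of a JNK arm probe. Over the whole array, 29 genes were called (23 higher), against 67 (18 higher) with the replicate block, 778 with the percentile of all probes, 12 with quantile normalization, 8 with spike-in centring, 17 with normexp, 11 with the authors' table, 0 without a filter, 62 with probes detected on all 6 arrays, 0 with the slide block, 1647 with array weights and 2 with the methods' test. Leaving out 1 array gave 0 to 100. The median of all probes was 0.06 under quantile normalization, 0.05 with spike-in centring, −0.09 with normexp and 0.06 in the authors' table.

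Among the values of the 8 tested probes under alternatives, 38 had the opposite sign, all of values that passed no test, and 1, that of Mapk9 probe 2 with array weights (−0.56), newly passed on p. With the percentile of all probes the values were 0.17 and 0.24 for Map2k4 probes 1 and 2, 0.34, 0.42 and 0.48 for Mapk8ip3 probes 1 to 3, 0.38 for Mapk9 probe 1 and 0.47 for Spag9. Quantile normalization gave 0.17 for Map2k4 probe 2, 0.094 for Mapk8ip3 probe 3, 0.052 for Mapk9 probe 1 and 0.074 for Spag9. Spike-in centring gave 0.065, 0.14 and 0.20 for Mapk8ip3, 0.11 for Mapk9 probe 1 and 0.19 for Spag9. Normexp gave 0.052 for Mapk8ip3 probe 3 and 0.039 for Spag9. The authors' table gave 0.026 and 0.11 for Map2k4, 0.022 and 0.039 for Mapk8ip3 probes 2 and 3, 0.055 for Mapk9 probe 1 and 0.047 for Spag9. Array weights gave 0.14 and 0.25 for Mapk8ip3 probes 2 and 3 and 0.026 for Spag9, and the slide block 0.038 for Mapk9 probe 1. Leaving out 1 array gave −0.47 to 0.052 for Map2k4 probe 2, −0.18 to 0.0097 and −0.12 to 0.15 for Mapk8ip3 probes 2 and 3, −0.26 to 0.044 for Mapk9 probe 1 and −0.12 to 0.091 for Spag9. The cause was not tested.

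Within arrays, Map2k3 minus Map2k7 was −0.17 with quantile normalization and −0.14 in the authors' table, Map2k6 minus Map2k4 and Map2k6 minus Map2k7 were 1.85 and 1.64 with normexp, and Mapk9 minus Mapk8 was −0.015 with normexp and 0.046 with quantile normalization. Mapk8ip3 probe 1 minus probe 2 was −0.20 in the authors' table and −0.13 to 0.0080 with 1 array left out, and Map2k4 probe 1 minus probe 2 was −0.27 to 0.13. Paired by replicate number, every such change kept its value, and the smallest p that sign permutation allows is 0.25. The percentile of all probes called 2 MAP3 and MAP4 kinases, 4 inhibitors, 5 substrates and 2 P38 arm genes, and array weights 2, 5, 10 and 4, with 1 scaffold partner. Inhibitors called fell to 0 with quantile normalization and with spike-in centring, and ranged from 0 to 2 with 1 array left out, where substrates and the P38 arm ranged from 0 to 1. For Map2k7, Mapk8, Mapk10, Mapk8ip1 and Mapk8ip2, signal near background limits every statement.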

Other observations

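The genes whose levels followed those of the measured JNK arm genes most closely over the 6 arrays, by Pearson correlation of the brightest probes among 11727 genes, are given as a description. For Map2k4 they included Psmd9 (r = 0.996) and Dennd5b (r = 0.995), and 90 genes stood above a correlation of 0.95. For Mapk9, by its probe 1, they were Selenop (r = 0.981), Spcs3 (r = 0.974) and Smim11 (r = 0.973), with 21 genes above 0.95. For Spag9 they included Phc3 (r = 0.998), with 8 genes above 0.95. For Mapk8ip3 the closest were probes with no gene symbol, with 39 above 0.95. All these values share 6 arrays, their scaling and the genotype. Probes 1 and 2 of one gene correlated at 0.23 for Mapk9, 0.50 for Map2k4 and 0.70 for Mapk8ip3. With so few arrays, unrelated genes can also reach high correlations, and how many would do so was not computed.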
